A study of Mus musculus with 12 samples.

Results

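The microRNAs miR-221 and miR-222 were followed in the livers of male and female mice. They were represented by 4 mature arms, mmu-miR-221-3p, mmu-miR-221-5p, mmu-miR-222-3p and mmu-miR-222-5p (below without the species prefix), taken by name from the 1906 mature microRNA names of the deposited count table. The samples were livers of 8-week-old Crl:CD1(ICR) mice, an outbred stock with no treatment named in the labels, with 6 males and 6 females and 1 small RNA library per liver. The comparison asked which microRNAs differ in abundance between the sexes. Nothing in the labels links a male to a female, and housing and handling in batches are not described there, so a p-value covers only the variation among these animals. All values come from whole liver, in which fewer cells of a type and less RNA per cell cannot be told apart.

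A microRNA is cut from a hairpin precursor that can give a 5p and a 3p arm, and the arm loaded into Argonaute represses messenger RNAs that pair with its seed, bases 2 to 8. miR-221-3p and miR-222-3p are the arms known as repressors of p27 (Cdkn1b), an inhibitor of cyclin-dependent kinases that holds cells out of the cell cycle. That role was worked out mainly in human cancer cells, where both arms also repress p57 (Cdkn1c) and the receptor KIT. Both microRNAs are raised in human hepatocellular carcinoma and are also expressed in endothelial cells, smooth muscle and activated stellate cells. The 5p arms are the rarer products of the same hairpins, and their targets are less well known.

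The 2 hairpins lie close together on the X chromosome. In the deposited table (mm9), miR-221-3p lies at chrX:18723433-18723455, miR-221-5p at chrX:18723470-18723495, miR-222-3p at chrX:18724029-18724049 and miR-222-5p at chrX:18724066-18724086. Their listed arms are 533 bases apart at the nearest, and all 4 fit in 654 bases. Each arm has 1 locus, and no other name in the table overlaps any of them. In the GENCODE annotation of a later build, both hairpins lie on the minus strand and in no other annotated gene, with the lncRNA gene Gm14636 as the nearest neighbour upstream. The nearest other microRNA in the table, miR-5617-3p, is 1716166 bases away.

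The mature sequences, from RefSeq (GRCm38.p6) for 3 of the 4 arms, are shown because the shared seed is what makes miR-221-3p and miR-222-3p a family. They are written 5′ to 3′ with the seed in capitals, together with miR-1928, the only other mature microRNA among 1679 in that table with the seed of the 3p arms.
miR-221-3p: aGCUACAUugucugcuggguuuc
miR-222-3p: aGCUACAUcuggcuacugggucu
miR-1928: aGCUACAUugccagcuc
miR-221-5p: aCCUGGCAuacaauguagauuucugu
miR-221-3p and miR-222-3p share their first 8 bases and, aligned without gaps, match at 11 of 23 positions. No other microRNA in that table has the seed of miR-221-5p. miR-1928 had 3 counts in all, 1 in each of 3 livers, below the floor of 3 counts in every liver. Among microRNAs with a sequence in that table, the seed was thus carried almost wholly by miR-221-3p and miR-222-3p. Counted names without a RefSeq sequence were not checked for the seed.

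The hairpins are shown with the mature arms listed by RefSeq in capitals, to place the arms that were counted on their precursor.
Mir221: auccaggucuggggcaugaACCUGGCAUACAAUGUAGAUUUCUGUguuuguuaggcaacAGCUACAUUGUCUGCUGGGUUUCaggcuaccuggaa
Mir222: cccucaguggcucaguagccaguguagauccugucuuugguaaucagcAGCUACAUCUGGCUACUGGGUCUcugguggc
The table gives miR-222-3p an interval of 21 bases, while its RefSeq sequence has 23. The effect of that on its counts was not tested.

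Seed matches in the 3′ UTRs of the mouse targets were looked up in GENCODE M21 transcripts, on the transcript strand, taking the longest 3′ UTR of each gene. The letters searched were ATGTAGC, which pairs with bases 2 to 8, and TGTAGCA, which pairs with bases 2 to 7 followed by an A. They overlap where both are present, as ATGTAGCA. Sites are shown with the matched letters in capitals, as the sequences that the family name refers to.
Cdkn1b, match 1: aaagcattggATGTAGCAttgcgc
Cdkn1b, match 2: atcttttactcTGTAGCAcataaa
Cdkn1b, match 3: ttgcttcaattTGTAGCAaggaga
Cdkn1c: cctttcgttcATGTAGCAggaacc
Kit, match 1: tgggagatatATGTAGCAagacta
Kit, match 2: aaatattgaaATGTAGCAataatg
The 3′ UTR of Cdkn1b, 3439 bases, held 1 match to ATGTAGC and 3 to TGTAGCA. Of 2106 3′ UTRs at least as long, cut to the same length, 24.5% held at least 1 ATGTAGC, 26.1% at least 1 TGTAGCA, and 0.807% at least 3 TGTAGCA. Kit, the receptor for stem cell factor, held 2 matches to each in 2177 bases, where 1.42% and 1.67% of 3′ UTRs of that length held at least as many. Cdkn1c held 1 of each in 688 bases, where 4.49% and 5.42% held at least as many. These are matches of letters, and no messenger RNA was measured in these libraries.

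Total microRNA counts per liver ran from 2953955 to 5516430, and a floor of 3 counts corresponded to 0.544 to 1.02 CPM per liver when scaled by its total count, before TMM, which covers counting error only. The liver marker miR-122-5p took 319017 ± 8682 CPM in the male and 343046 ± 22759 CPM in the female livers (SD, n = 6 per sex), and no library lacked it. All CPM except those of the floor, and so also those of miR-122-5p, are scaled by TMM, a trimmed mean of the log ratios between libraries. CPM put the counts of each library on 1 common size. A read stands for a whole small RNA, so levels of different arms were set side by side without division by length, but the efficiency of adapter ligation can differ between sequences and was not measured.

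The 4 arms were of very unequal abundance, in the same order in every liver: miR-221-3p, miR-222-3p, miR-221-5p and miR-222-5p. The lowest liver of each was above the highest liver of the next. miR-221-3p ranked 68th in mean CPM of the 419 tested names, those with enough counts, miR-222-3p 138th, miR-221-5p 218th and miR-222-5p 400th. Together they took 0.0950 ± 0.0157% of all microRNA counts in the male livers and 0.0654 ± 0.0120% in the female livers (SD, n = 6 per sex), so the family was a minor part of the liver's microRNAs. miR-221-3p alone made up 79.5 ± 2.90% of the family's counts in males and 81.5 ± 1.06% in females. The ratio of miR-221-3p to miR-222-3p in CPM was 4.96 ± 0.944 in males and 5.41 ± 0.398 in females.

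All 4 arms passed the filter on low counts, and 3 of the 4 were higher in males: miR-221-3p, miR-222-3p and miR-221-5p, by 1.52-fold, 1.70-fold and 1.94-fold. miR-222-5p, the rarest, had a positive difference that did not pass. Over all 419 tested names, 16.9% were called in either direction 8.35% as higher in males and 8.59% as higher in females, by edgeR's quasi-likelihood test with a Benjamini-Hochberg adjusted p under 0.05. The median log2 fold change of male over female was -0.02 over all tested names and lay between 0.60 and 0.95 for the members.

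**Figure D1:**
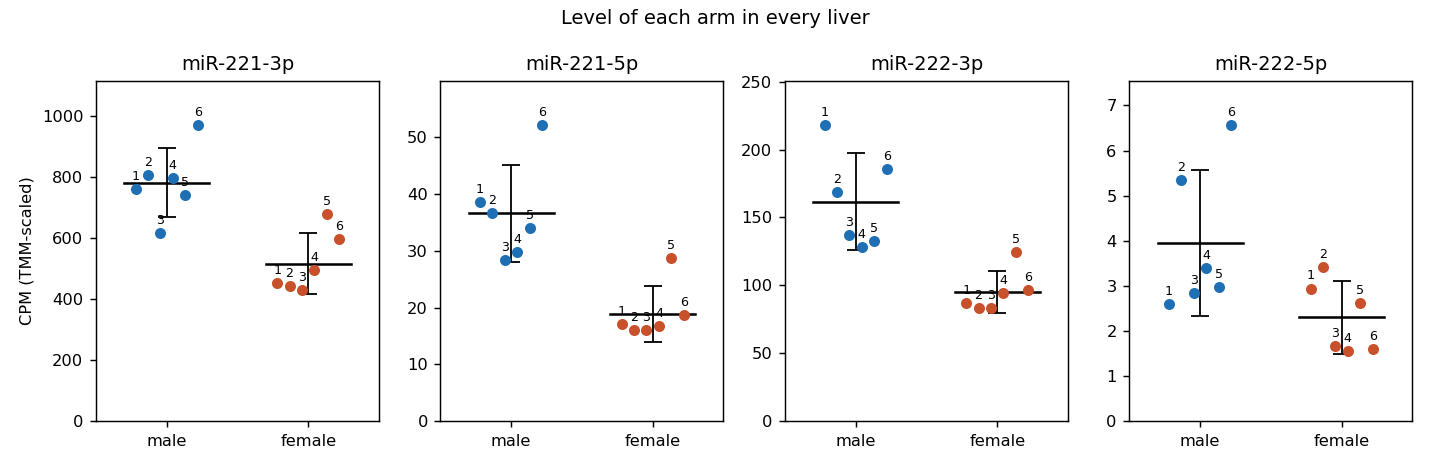
CPM (TMM-scaled, linear axis from 0) of each arm in every liver; points are livers numbered by replicate, horizontal lines are means and bars are SD (n = 6 per sex). For miR-222-3p every male lay above every female; for miR-221-3p and miR-221-5p male 3 lay below female 5, and for miR-222-5p the sexes overlapped widely.

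miR-221-3p, the most abundant repressor of p27 in the family, had 761, 806, 615, 795, 741 and 968 CPM in males 1 to 6. In females 1 to 6 it had 451, 443, 427, 495, 678 and 597 CPM. 5 of 6 males lay above every female, and the exception was male 3, which lay below female 5. Of all tested names, 11.9% had at least 5 of 6 males above every female. Male livers averaged 781 ± 114 CPM and female livers 515 ± 101 CPM (SD, n = 6 per sex). That is a log2 fold change of 0.60, standard error 0.13 (edgeR adjusted p = 0.00722). Raw counts were 1687 to 3917 per liver, so the counting error, about 2.15% of the female mean, was small beside the spread between females of 19.5%.

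miR-222-3p, which has the same seed, had 218, 169, 137, 128, 132 and 186 CPM in males 1 to 6. The female values were 86.9, 83.3, 83.6, 94.4, 125 and 96.3 CPM. All 6 males lay above every female, a separation seen in this direction in 4.53% of tested names. The gap was narrow, since male 4 had 128 CPM and female 5 had 125 CPM. With means of 162 ± 35.8 CPM and 94.9 ± 15.6 CPM, the log2 fold change came to 0.77, standard error 0.15 (edgeR adjusted p = 0.00343).

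miR-221-5p, the rarer arm of the miR-221 hairpin, had 38.5, 36.6, 28.4, 29.8, 34.1 and 52.1 CPM in males 1 to 6. In females it had 17.1, 16.0, 16.0, 16.8, 28.7 and 18.7 CPM. The males except male 3 lay above every female, and the females except female 5 lay below every male. At least 5 of 6 males above every female was seen in 11.9% of tested names. The means were 36.6 ± 8.54 CPM and 18.9 ± 4.92 CPM, and the log2 fold change came to 0.95, standard error 0.19 (edgeR adjusted p = 0.00343). It ranked 13th by fold change of the 35 names higher in males, where miR-222-3p ranked 15th and miR-221-3p 20th.

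miR-222-5p had 8, 26, 11, 14, 12 and 19 raw counts in males 1 to 6 and 12, 13, 7, 6, 9 and 9 in females. The sexes overlapped, with 2 of 6 males, males 2 and 6, above every female. Its means were 3.95 ± 1.62 CPM and 2.30 ± 0.803 CPM, a log2 fold change of 0.79 with a standard error of 0.30 (unadjusted p = 0.0198, edgeR adjusted p = 0.0854). Counting error alone came to 25.8% of the mean in males and 32.7% in females, against spreads of 41.0% and 35.0%.

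**Figure D2:**
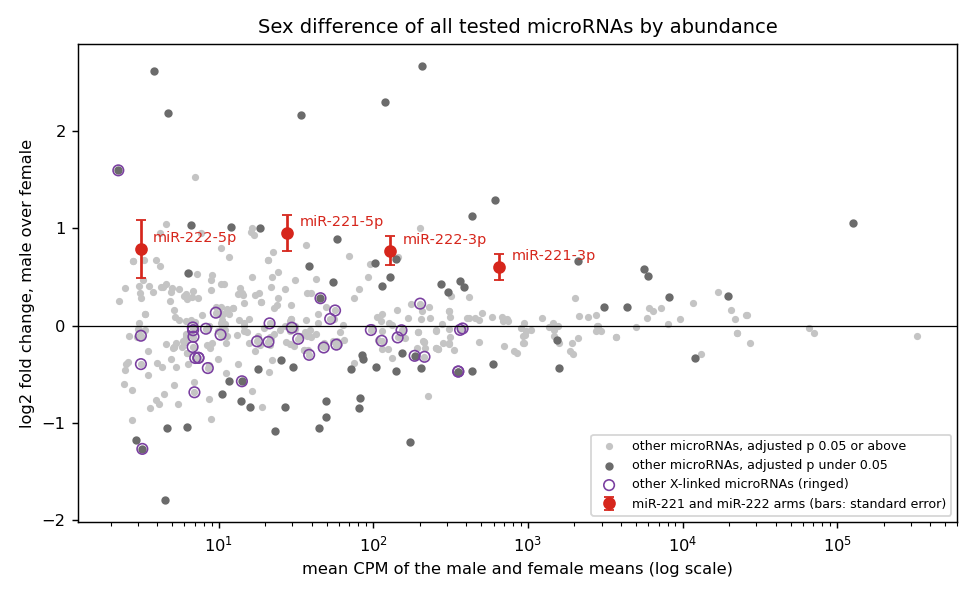
Log2 fold change of male over female against mean CPM (log axis) for the 419 tested microRNAs, with the 4 arms in red with standard errors and other X-linked names ringed. The arms lie at 0.60 to 0.95, while 32 of the 39 other X-linked names lie below 0.

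The 3 calls held under each scaling between libraries that was tried. Scaling by total counts alone moved the median of all tested names from -0.02 to -0.12, and gave log2 fold changes of 0.50 for miR-221-3p (adjusted p = 0.0226), 0.67 for miR-222-3p (0.0107) and 0.85 for miR-221-5p (0.00676). Relative to the median of all names, miR-221-3p stood at 0.62 under either scaling, miR-222-3p at 0.79 and 0.80 and miR-221-5p at 0.97 and 0.98. Subtracting the median takes out a shift common to all names, so this near equality was largely fixed in advance and is no separate check. Of all calls 49.3% were higher in males with TMM and 31.0% with total counts. With each liver left out in turn the highest adjusted p was 0.0184 for miR-221-3p, 0.0106 for miR-222-3p and 0.0105 for miR-221-5p. The authors' deposited table, also from edgeR but adjusted over all listed loci, gives log2 fold changes of 0.63, 0.80 and 0.99 for these arms with FDR of 0.00970, 0.000461 and 0.000194. For miR-222-5p the authors' deposited table gives 0.83 with an FDR of 0.345.

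Whether the arms differed between the sexes by unequal amounts was tested on the log2 ratio of counts within each liver, which needs no scaling. In the miR-221 hairpin, the ratio of 3p to 5p was 4.30, 4.46, 4.43, 4.73, 4.44 and 4.21 in males 1 to 6. In females it was 4.71, 4.78, 4.73, 4.87, 4.55 and 4.99. 5 of 6 males lay below every female, the exception being male 4. The ratio was lower in males by a difference of -0.34 on the log2 scale, so the rarer 5p arm differed more between the sexes than the 3p arm (two-sided exact permutation test, p = 0.00649, adjusted over 6 pairs p = 0.039, 95% interval -0.54 to -0.13). This call was near the threshold: it was lost on adjustment when any of 10 of the 12 livers was left out, all but male 4 and female 5, with unadjusted exact permutation p of 0.013 to 0.0152 in those 10, while the difference stayed between -0.41 and -0.30. As a share, the 3p arm took 95.5 ± 0.505% of the reads of both arms in the male livers and 96.5 ± 0.349% in the female livers (SD, n = 6 per sex). Of 124 hairpins with both arms tested, 24 had a larger difference between their arms in log2 fold change than the 0.35 of miR-221, and the median was 0.18.

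**Figure D3:**
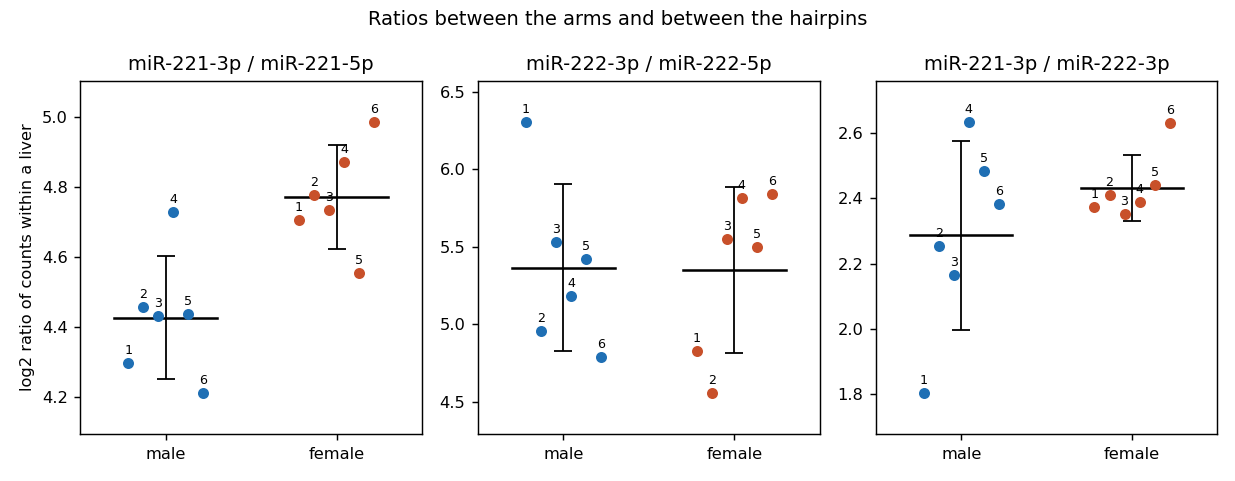
Log2 ratio of counts within each liver for the arms of miR-221, the arms of miR-222 and the 3p arms of both hairpins; points are livers numbered by replicate, lines are means and bars SD (n = 6 per sex; axes do not start at 0). The 3p to 5p ratio of miR-221 averaged 4.43 in males and 4.77 in females, and in the other ratios the sexes overlapped, with male 1 the lowest of all livers in the ratio of miR-221-3p to miR-222-3p.

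The other pairs gave no difference that passed. The ratio of miR-221-3p to miR-222-3p averaged 2.29 ± 0.289 on the log2 scale over male livers and 2.43 ± 0.101 over female livers (SD, n = 6 per sex). The difference of -0.15 had a 95% interval of -0.42 to 0.11 (exact permutation p = 0.301, adjusted p = 0.602). Males were more spread, from 1.80 in male 1 to 2.63 in male 4. For miR-222 the 3p arm took 97.6 ± 0.799% of both arms in males and 97.6 ± 0.966% in females, and the difference in log2 ratio was 0.01 with a wide interval of -0.67 to 0.71 (exact permutation p = 0.963). Between miR-221-5p and miR-222-3p the difference was 0.20 (interval -0.04 to 0.44, exact permutation p = 0.0974, adjusted p = 0.292). Pairs with miR-222-5p had intervals of -0.77 to 0.51 for miR-221-3p and -0.40 to 0.82 for miR-221-5p (adjusted exact permutation p = 0.766 and 0.666).

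Within a sex the arms also varied between livers, and single livers stood high in several arms at once. Female 5 lay above the female mean by 0.42 on the log2 scale for miR-221-3p, 0.62 for miR-221-5p and 0.41 for miR-222-3p. It was the highest female in these 3 arms. Male 6 was the highest male for miR-221-3p, miR-221-5p and miR-222-5p, at 0.32, 0.53 and 0.74 above the male mean. Male 1 was high in miR-222-3p alone, by 0.46, with -0.03 for miR-221-3p and -0.45 for miR-222-5p. Male 3 was below the male mean in all 4 arms, by -0.33 for miR-221-3p.

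**Figure D4:**
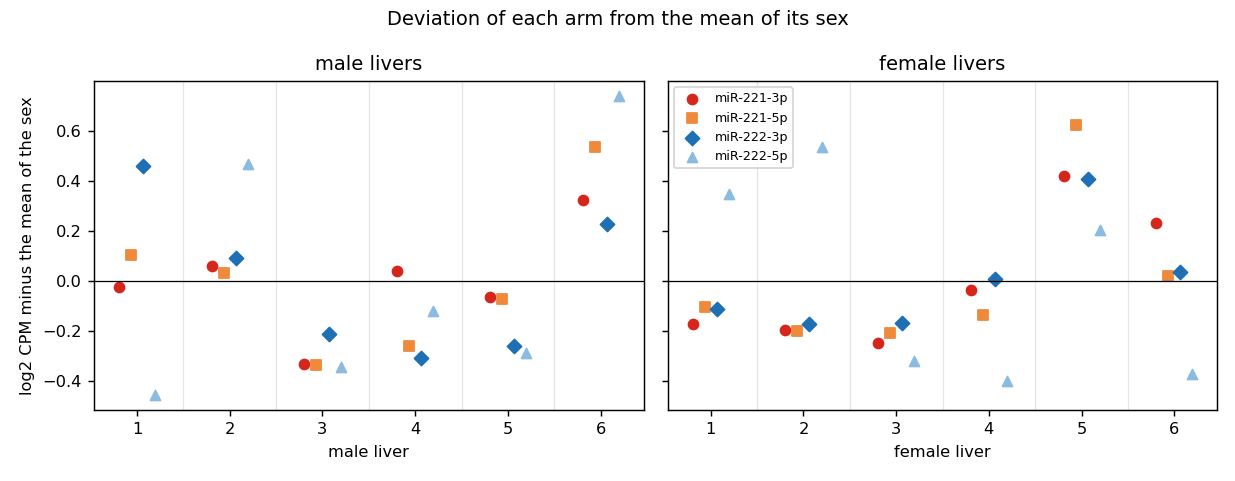
Log2 CPM of each arm minus the mean of its sex, by liver. Female 5 and male 6 lie above 0 in all 4 arms and male 3 lies below 0 in all 4, while in male 1 miR-222-3p (0.46) and miR-222-5p (-0.45) lie on opposite sides.

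Correlations of log2 CPM were computed within each sex for 3 pairs, 6 relations in all. Among females, miR-221-3p and miR-222-3p had Pearson's r = 0.933 (exact permutation p = 0.00278, adjusted p = 0.0167) and Spearman's rho = 0.943 (p = 0.0167, adjusted p = 0.05, n = 6). Without females 5 and 6, the farthest from the median, r was 0.963 over 4 livers. Among males r was 0.434 (exact permutation p = 0.4, adjusted p = 0.6) and rho 0.314 (exact permutation p = 0.564), and r was -0.03 without males 3 and 6. The difference between the sexes in r was not tested. The arms of the miR-221 hairpin had r = 0.891 in females (exact permutation p = 0.00694, adjusted p = 0.0208; rho 0.943) and 0.844 in males (exact permutation p = 0.0611, adjusted p = 0.122; rho 0.714). Without the 2 farthest livers r was 0.584 in females and -0.22 in males. Leaving out the extreme livers narrows the range and leaves only 4, so how far the relations rest on those livers cannot be told. The arms of miR-222 had r = 0.249 among male livers (exact permutation p = 0.592, rho -0.09) and -0.02 among female livers (exact permutation p = 0.974, rho -0.49). Without the 2 farthest livers r was 0.887 in males and -0.44 in females, each over 4 livers, so these values changed with the livers included. miR-222-5p had 6 to 26 counts per liver.

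The microRNAs most like miR-221-3p across the 12 livers, after the mean of each sex was subtracted, were found by Pearson's r over the 418 other tested names. First was its own 5p arm (r = 0.865), followed by miR-195a-5p (0.732), miR-130a-3p (0.693), miR-26b-3p (0.679) and miR-195a-3p (0.649), with miR-222-3p at rank 6 (0.642). For miR-222-3p the first was miR-221-5p (0.806), followed by let-7b-5p (0.771), miR-191-5p (0.755), miR-22-3p (0.754) and miR-22-5p (0.713), with miR-221-3p at rank 10. Apart from the members, none of these is X-linked. All points share the library and its scaling, and the values are a description of likeness only.

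Of 39 tested X-linked names besides the 4 arms, 2 were higher in males and 5 higher in females, with a median log2 fold change of -0.14 against -0.02 over all tested names. These 7 names were chosen after their values were seen. The 2 higher in males were miR-881-3p (1.59, edgeR adjusted p = 0.036), at 3.41 CPM against 1.07 CPM, and let-7f-2-3p (0.28, adjusted p = 0.0423). Those higher in females were miR-374b-5p and miR-374c-3p with identical values (-0.47, adjusted p = 0.000768), miR-2137 (-1.27), miR-421-3p (-0.57) and miR-652-3p (-0.31). With the 4 arms included, 43 X-linked names were tested, and 5 of them passed with a male excess, 3 being members. By comparison, 8.35% of all 419 tested names passed with a male excess and 8.59% with a female excess. Whether the X-linked names depart from these shares was not tested.

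Of 11 other tested microRNAs reported to repress inhibitors of cyclin-dependent kinases, 0 were higher in males and 2 higher in females, with a median of -0.13, by edgeR's test. Over all 419 tested names the shares called were 8.35% for higher in males and 8.59% for higher in females. miR-152-3p, a repressor of p27 in human cells, stood at 1344 ± 161 CPM in male and 1826 ± 113 CPM in female livers. Its log2 fold change was -0.44 (adjusted p = 0.00265). miR-106b-5p, a repressor of p21, changed by -0.46 (adjusted p = 0.00584), with 117 ± 10.8 CPM against 162 ± 19.7 CPM. The most abundant, miR-148a-3p, which has the seed of miR-152-3p, was not called, at -0.07 on the log2 scale (adjusted p = 0.54). It stood at 69362 ± 8297 CPM in males, far above miR-221-3p. At an unadjusted p under 0.05 no member of that list was higher in males.

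Among microRNAs raised in liver tumours or regenerating liver, 10 were tested, of which 2 were higher in males and 2 higher in females. Both arms of miR-21a, which is raised in many tumours and damaged tissues, were higher in males, miR-21a-5p by 1.06 (adjusted p = 0.000153) and miR-21a-3p by 1.02 (adjusted p = 0.021). miR-34a-5p, a transcriptional target of p53, was lower in males by -0.77 (adjusted p = 0.0294), as was miR-106b-5p. The median log2 fold change of these 10 tested names was 0.33.

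Of the markers of other liver cell types, 0 were called as higher in males by edgeR. Over all tested names the share called was 8.35% for higher in males and 8.59% for higher in females. The endothelial markers, both arms of miR-126a, summed to 21232 to 28894 CPM in males and 24161 to 27335 CPM in females, and 0 of 2 were called by edgeR (unadjusted p = 0.321 and 0.982). The 10 markers of stellate cells, fibroblasts and smooth muscle summed to 10690 to 16577 CPM in males and 15322 to 18312 CPM in females. 2 of these 10 were higher in females, miR-143-3p (-0.34, adjusted p = 0.0263) and miR-143-5p (-0.44, adjusted p = 0.0273), and none higher in males. Of 6 tested immune markers, 1 was higher in females, miR-142a-5p (-0.47, adjusted p = 0.0256), and their sum ran from 505 to 994 CPM in males and 805 to 1104 CPM in females. None of these marker lists had a defining member at 0. In female 5, the female highest in miR-221-3p, miR-221-5p and miR-222-3p, the endothelial, mesenchymal and immune sums ranked 4th, 4th and 6th of 6, and in male 6 they ranked 5th, 6th and 3rd. Of 7 red cell and 5 biliary markers 0 were called by edgeR, with sums of 1298 to 4955 and 803 to 7106 CPM in males and 2449 to 3816 and 2316 to 7910 CPM in females. Among the red cell markers, miR-486a-5p and miR-486b-3p had identical values, as did miR-486b-5p and miR-486a-3p. The red cell sum therefore counts each of these values under both names. Of 8 tested hepatocyte markers 2 were higher in females, both arms of miR-802 (-1.20 and -1.08, adjusted p = 0.000398 and 0.00135). The hepatocyte sum ran from 398969 to 423324 CPM in males and 419572 to 471486 CPM in females. Female 5 had the highest hepatocyte sum of the females, and male 6 ranked 4th of the males. The red cell and biliary sums ranked 5th and 5th in female 5 and 5th and 3rd in male 6. The part of cell composition in the sex difference of the members was not tested.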

How the data were processed

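Small RNA libraries were made from whole liver of 6 male and 6 female mice with a stranded kit, per the labels' protocols. Bowtie2, Trim Galore, edgeR, bedtools and the build mm9 are listed in the submitters' processing notes. Versions, settings, annotation release and filters were not given in the sources used here. For each liver the authors deposited raw counts of reads per mature microRNA locus. Per the file headers, the table also holds their own edgeR log2 fold change, average log2 CPM, p-value and FDR.

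Counts of loci with the same name were summed, giving 1906 names from 2044 loci. Names were filtered with filterByExpr by sex, which left 419 with 99.97% of counts, scaled by TMM and compared with edgeR 4.0.16 (glmQLFit, glmQLFTest, no covariate) in R 4.3.3, with Benjamini-Hochberg adjustment over all 419 and a threshold of 0.05. Positive log2 values mean higher in males. Log2 CPM used a prior count of 2 and ratios a pseudocount of 0.5. Ratios and correlations were tested by exact permutation, and the interval of a ratio difference holds the shifts that the permutation test does not reject. The procedure was tested on simulated data.

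Named were the 4 arms, microRNAs with their seed, the 5 names most like each 3p arm, and of each list the called members, at most 4, and the most abundant. Called X-linked names were added after their values were seen. The members and lists were chosen with earlier results of these data known. Alternatives were other scalings, DESeq2 1.42.0, other filters, the replicate number as a block and leaving out livers.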

Additional observations from a re-analysis of the deposited data

Results flagged for a closer look

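Female 5 stood apart from the other females in miR-221-5p (28.7 CPM, gap to the next female 0.782 of the group's range) and in miR-222-3p (125 CPM, 0.687). Female 6 stood apart from the other females in the log2 ratio of miR-221-3p to miR-222-3p (2.63, gap 0.682 of the range). These were 3 flags among 20 groups of 6 livers checked, where chance flags about 1 group in 20, and the groups share livers and arms. No male value was flagged.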

How the results depend on the processing

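The log2 fold changes of the 4 arms kept their direction and their side of the threshold under every alternative run, among them DESeq2, where miR-222-5p had an adjusted p of 0.122. With a single liver left out they ranged from 0.53 to 0.70 for miR-221-3p, 0.83 to 1.11 for miR-221-5p, 0.65 to 0.87 for miR-222-3p and 0.62 to 0.93 for miR-222-5p (adjusted p 0.0623 to 0.187). A mean of at least 10 CPM left out miR-222-5p. The number of names called, 71, ranged from 47 (without male 3) to 82 with a single liver left out, and from 48 (replicate block) to 85 (DESeq2) under the other alternatives. The replicate block gave 48 calls and log2 fold changes of 0.61, 0.96, 0.76 and 0.78 in the order above. The labels do not say that the numbers pair the sexes. Deviations of same-numbered livers from their sex means correlated by -0.13 to 0.30, with 2 of 6 pairs over 0.1. In this comparison 0 of 6 males correlated best with the female of the same number. Such correlations cannot exclude a pairing. The ratio of miR-221-3p to miR-221-5p lost its call with a pseudocount of 2 (-0.33, adjusted p = 0.0519) and under the replicate block by exact sign flips (-0.34), whose smallest p of 0.0312 cannot pass over 6 pairs. With 1 liver left out it lay between -0.41 and -0.30. Differences that had not passed and were near 0 changed sign: miR-222-3p to miR-222-5p with a pseudocount of 0.1 (-0.0054), without males 1 and 4 (-0.18) and with 1 liver left out (-0.17 to 0.13), and miR-221-3p to miR-222-5p with 1 left out (-0.29 to 0.0077). The correlations without the 2 farthest livers were -0.025 in males and 0.96 in females for miR-221-3p with miR-222-3p, and -0.22 and 0.58 for the arms of miR-221; over these 4 livers the lowest unadjusted exact permutation p was 0.0833. The cause of these changes was not tested. Depth limits miR-222-5p, with 6 to 26 counts per liver.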
